A study of Mus musculus with 8 samples.

Results

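Mouse liver RNA from MLL4 het-labelled and wild-type animals was compared over chow and high-fat diet (HFD) together, so that the genotype difference common to both diets could be described. All 8 of the 8 RNA-seq libraries of the study entered this comparison, 4 labelled MLL4 het and 4 labelled wild-type, with 2 libraries of each genotype on each diet. The animals were C57 Black mice whose feeding on chow or HFD began at an age of 8 weeks and went on for 8 weeks, and the sampled tissue was whole liver. Below, libraries 1 and 2 are wild-type on chow, 3 and 4 het-labelled on chow, 5 and 6 wild-type on HFD, and 7 and 8 het-labelled on HFD, and library values follow that order. The labels do not give the allele, whether it is whole-body, or the sex of the animals, nor do they say that each library came from a separate animal. What the p-values weigh is thus only how far these libraries scatter, and part of that scatter may be technical.

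MLL4, encoded by Kmt2d, is a histone methyltransferase that places monomethyl marks on lysine 4 of histone H3 at enhancers. It works in a large complex with the demethylase Kdm6a and shares that kind of complex with its relative MLL3, encoded by Kmt2c. The complex is known as a coactivator of nuclear receptors, among them the PPAR family, and in liver it has been linked to PPARG-driven fat storage and to bile acid control. The name MLL4 has also been used for a related enzyme, Kmt2b, so both genes were looked at here.

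Libraries held 14142884 to 18928676 counts in genes, so that 3 counts corresponded to 0.161 to 0.213 counts per 1e+06 counts (CPM). Of 22946 rows, 12593 passed the filter on low counts and were tested. Pairs of libraries within a group differed well beyond counting error, at 15.5 to 16.8 for the ratio of chi-square to its degrees of freedom, which does not show whether they came from separate animals. The first principal component of log CPM separated the diets (37.5% of variance) and the second separated the genotypes (22.2%). On the third (14.2%), het-labelled library 3 (20.6) and het-labelled library 8 (-28.6) lay farthest apart. Y-linked genes were detected and Xist had 1 to 9 counts in every library, and all 18 listed hepatocyte markers were detected.

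Kmt2d, counted under the older symbol Mll2, was not lower in the het-labelled livers. Its level was 61.2 and 69.6 CPM in wild-type chow, 59.9 and 72.0 in het-labelled chow, 63.3 and 64.6 in wild-type HFD, and 62.7 and 75.3 in het-labelled HFD libraries. The groups overlapped on both diets. The log2 difference, het-labelled minus wild-type, was 0.06 with a standard error (SE) of 0.09 and a 95% interval of -0.13 to 0.25 (adjusted p = 0.745, edgeR quasi-likelihood test). Counts over the whole gene do not show whether part of it was deleted, so the genotype is given throughout as labelled.

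Of the 17 tested members of a list of histone H3 lysine 4 methyltransferase complexes, 1 rose (5.88%, against 0.778% of all tested rows called higher at an adjusted p under 0.05), none fell and 15 had a positive log2 difference. The median was 0.11, against 0.01 over all tested rows. The gene that rose was Setd1a, a methyltransferase of the separate SET1 complex, at 33.1 and 34.5 CPM in wild-type chow, 41.5 and 43.7 in het-labelled chow, 33.4 and 34.4 in wild-type HFD, and 41.7 and 39.0 in het-labelled HFD libraries. Every het-labelled library lay above every wild-type one, with a log2 difference of 0.29 (SE 0.06, edgeR adjusted p = 0.0377). This call held only without library 8; leaving out any other library ended it (adjusted p up to 0.130). Kmt2b, listed in the table under the older symbol Wbp7, had a log2 difference of 0.27 (SE 0.06, edgeR adjusted p = 0.0594) and lay higher in het-labelled libraries on both diets. Kmt2c (0.11, edgeR adjusted p = 0.452), Kdm6a (0.18, edgeR adjusted p = 0.240) and the kinase gene Abl1 (0.13, edgeR adjusted p = 0.291) were not called.

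Across both diets, 313 genes (2.49% of those tested) passed an adjusted p under 0.05. Of these, 98 rose in het-labelled livers (0.778% of tested rows) and 215 fell (1.71%). Most changes were modest, with a median log2 difference of 0.67 among genes that rose and of -0.67 among those that fell, and a fold of at least 2 was reached by 20 that rose and 62 that fell. From the gene lists used below, the lower group held 5 genes of lipid droplets and uptake and 4 of fatty acid oxidation. It also held 5 of drug conjugation and 3 of amino acid breakdown. The higher group held 3 interferon-induced genes, 3 Kupffer cell markers and 1 wider macrophage marker, beside a pair of Mettl7a genes. These are a small part of the 215 and 98, and many of these calls ended when 1 library was left out. Before any adjustment, 2477 rows had p under 0.05.

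The 2 diets share no library, so each gives its own reading of the genotype difference. All 313 called genes had the same sign on chow and on HFD, and in 305 the het-labelled libraries did not overlap the wild-type ones on either diet. The test that chose these genes averages the diets, so neither count is support for it. Over all tested rows, 2203 (17.5%) were separated in this way. In 211 called genes all 4 het-labelled libraries lay beyond all 4 wild-type libraries, as they did in 1051 of all tested rows (8.35%). The 211 were called on these same libraries, so this count is no support for the test either.

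Fitted on the chow libraries alone, the genotype comparison called 71 genes (0.564%), and on the HFD libraries alone 25 (0.199%), with 5 in both. The 37 genes called higher on chow (0.294%) had a median log2 difference of 1.51 there and of 0.40 in the independent HFD libraries, where 35 (94.6%) had the same sign and 11 (29.7%) were separated between genotypes. Among all rows with a higher value on chow, 62.9% had the same sign on HFD and 29.4% were separated. The share separated was thus near the background for genes that rose. For the 34 genes called lower on chow (0.27%), 29 (85.3%) had the same sign on HFD and 22 (64.7%) were separated, with medians of -1.45 on chow and -0.76 on HFD. Among all rows lower on chow these shares were 60.2% and 34.5%. In the other direction, 17 (81.0%) of 21 genes called lower on HFD (0.167%) had the same sign on chow and 14 (66.7%) were separated, against 59.5% and 31.5% of all rows lower on HFD. Only 4 genes were called higher on HFD alone (0.0318%), all with the same sign on chow and 3 separated there.

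The numbers called on 1 diet depended on single libraries. On chow, 42 genes were called without library 1, 8 without library 2, 327 without library 3 and 1892 without library 4. On HFD the numbers were 0 without library 5, 7 without library 6, 682 without library 7 and 214 without library 8. Across genes averaging 1 CPM or more, the log2 differences on the diets correlated with Pearson's r = 0.416 (n = 11586 genes, which are not independent replicates).

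**Figure D1:**
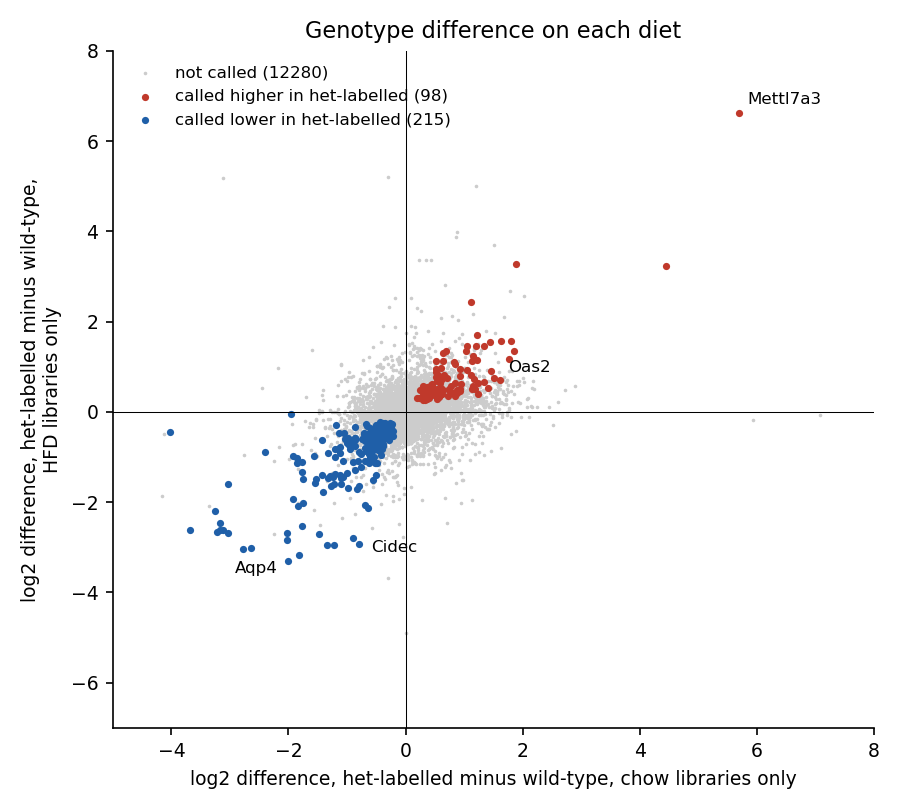
Each point is 1 of the 12593 tested genes, with its log2 difference (het-labelled minus wild-type) in the chow libraries on the x axis and in the HFD libraries on the y axis. Red points are the 98 genes called higher and blue points the 215 called lower over both diets, and all 313 sit in the upper right or lower left quadrant. 1 gene that was not called lies outside the axes.

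No gene passed the test of the interaction, which asks whether the genotype difference itself changed with diet (0 of 12593 in the edgeR quasi-likelihood test, 900 at an unadjusted p under 0.05, 29 called by DESeq2 and 0 by limma-voom). Its smallest adjusted p was 0.0963, for the zinc transporter gene Slc39a4. Of the 313 called genes, 27 had an unadjusted interaction p under 0.05. Leaving out library 7 gave 14 interaction calls, leaving out library 3 or 4 gave 2 each and leaving out library 6 gave 1. A size of effect equal on both diets is not shown by these numbers.

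The call counts moved with the library that was left out and with the diet term. With 1 library left out, the numbers higher and lower were 26 and 113 without library 1, 7 and 37 without library 2, 49 and 132 without library 3, 66 and 189 without library 4, 25 and 88 without library 5, 21 and 98 without library 6, 51 and 143 without library 7, and 135 and 163 without library 8. Of the calls left without library 2, 43 were among the 313. The share of calls that were lower ran from 54.7% without library 8 to 84.1% without library 2, against 68.7% with all libraries, 62.8% with upper-quartile scaling and 72.4% with DESeq2-type size factors. Without libraries 3 and 8, which lay farthest apart on the third component, 79 were higher and 95 lower, and 116 of these were among the 313. A fit without the diet term, which leaves the diet differences in the error, called 2 higher and 6 lower.

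The largest rise of a called gene was in Mettl7a3, which encodes a methyltransferase-like protein whose relatives are found on lipid droplets. It had 6, 0, 1 and 2 counts in wild-type libraries 1, 2, 5 and 6, and 140, 143, 176 and 120 counts in het-labelled libraries 3, 4, 7 and 8. In CPM the het-labelled livers were at 9.92, 9.72, 9.44 and 8.53 and no wild-type library was above 0.378. The fitted log2 difference was 6.08 (SE 0.35, 95% interval 5.30 to 6.87, edgeR adjusted p = 7.88e-05). Wild-type livers thus had almost no reads in this row, and het-labelled livers on both diets had a similar, low level.

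The row that merges Mettl7a2 with its overlapping genes Higd1c and AB099516 rose too. It was at 12.4 and 11.4 CPM in wild-type chow, 23.3 and 25.8 in het-labelled chow, 8.77 and 7.49 in wild-type HFD, and 23.5 and 20.5 in het-labelled HFD libraries. No het-labelled library overlapped a wild-type one, and the log2 difference was 1.24 (SE 0.11, edgeR adjusted p = 0.00157). The third copy, Mettl7a1, was far more abundant, at 316, 312, 268, 289, 240, 248, 254 and 235 CPM in libraries 1 to 8, and did not pass (-0.09, edgeR adjusted p = 0.503). In the reference transcripts the open reading frames of Mettl7a2 and Mettl7a3 were identical at 728 of 735 bases (99.0%), while Mettl7a1 matched them at 94.7% and 94.3%. How reads shared by such copies were assigned is not given in the sources used here, so the division of counts between Mettl7a2 and Mettl7a3 is uncertain.

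Both Mettl7a rows lie close to Kmt2d in the gene order of the mouse reference (assembly GRCm38.p6, used for names and order only). Counting tested genes outward from Kmt2d, Mettl7a3 was at position 24 and the Mettl7a2 row at position 25 on the same side. Of the 50 tested genes within 25 positions on either side, 5 were called (10%), 2 higher and 3 lower, against 313 of 12497 placed genes (2.5%). From position 26 to 100, where the chromosome's tested genes end at 71 on 1 side, 1 of 121 was called (0.826%), and on the rest of the chromosome 10 of 323 (3.1%). The window was chosen with earlier results known and its outermost member on that side is a called row, so the count is a description.

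The other neighbours that changed were all lower. Gpd1, which encodes the cytosolic glycerol-3-phosphate dehydrogenase that supplies the glycerol backbone of triglycerides, was at 369.8 and 375 CPM in wild-type chow, 264 and 233 in het-labelled chow, 739 and 736 in wild-type HFD, and 420.3 and 314 in het-labelled HFD libraries. It fell on both diets with no overlap, by 0.80 on the log2 scale (SE 0.11, edgeR adjusted p = 0.0138), and the call held without any single library. Next to it, the chromatin remodelling subunit gene Smarcd1 fell by 0.85 (SE 0.17, edgeR adjusted p = 0.0342). Fkbp11, a prolyl isomerase gene 3 positions from Kmt2d on the opposite side, fell by 0.58 (SE 0.12, edgeR adjusted p = 0.0343). Without any 1 of libraries 1, 2, 3, 5, 6 and 7 the Smarcd1 call ended, and without any but library 8 the Fkbp11 call ended (adjusted p up to 0.0946 for each).

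**Figure D2:**
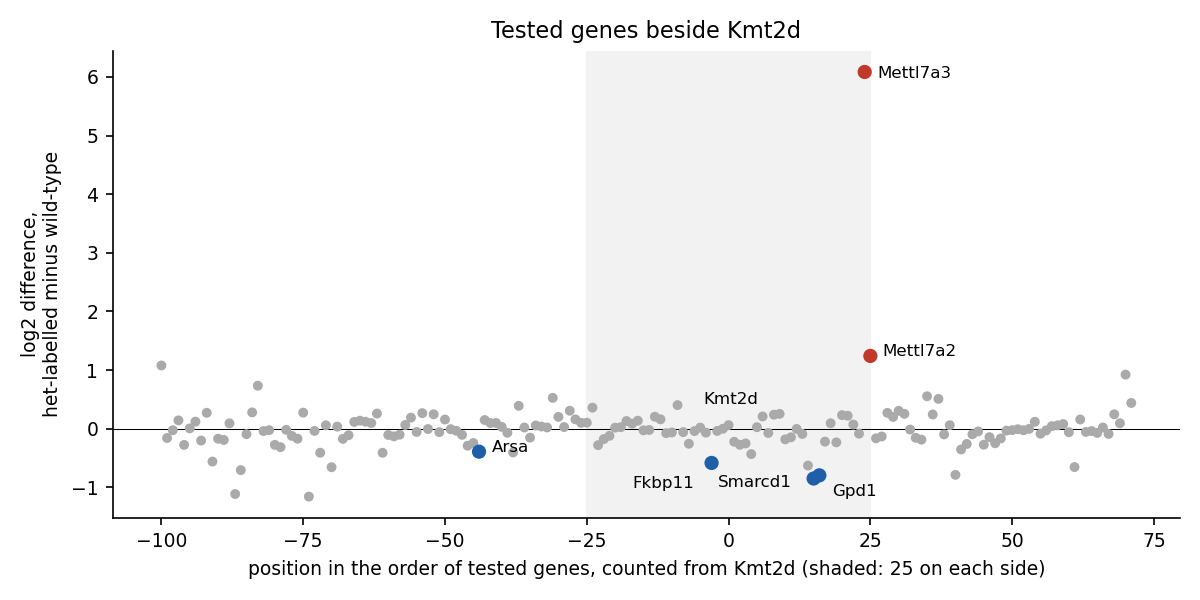
Log2 difference, het-labelled minus wild-type (y axis), of tested genes in their order along the chromosome, counted from Kmt2d at 0 (x axis), with 25 positions on each side shaded. Red points were called higher and blue points lower; Mettl7a3 at position 24 has a log2 difference of 6.08, while Kmt2d itself is at 0.06.

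Among called genes averaging 1 CPM or more and separated on both diets, Aqp4, a water channel gene, had the largest fall. It was at 2.83 and 3.71 CPM in wild-type chow, 0.425 and 0.612 in het-labelled chow, 14.9 and 14.5 in wild-type HFD, and 1.77 and 1.85 in het-labelled HFD libraries. On either diet the het-labelled livers were far below the wild-type ones, and HFD libraries were above chow libraries in both genotypes. The log2 difference was -2.91 (SE 0.16, edgeR adjusted p = 7.88e-05), with -2.64 from chow and -3.01 from HFD libraries alone. A further aquaporin of the hepatocyte, Aqp8, chosen after its values were seen, fell by 1.34 (SE 0.16, edgeR adjusted p = 0.00884), from 83.6 and 139 CPM in wild-type to 41.6 and 53.2 in het-labelled libraries on chow, and from 222 and 185 to 66.1 and 83.5 on HFD.

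Of the genes that fell, only Aqp4 had a smaller adjusted p in the edgeR test than Alas2 and Adora1. Alas2, the erythroid form of the first enzyme of heme synthesis, was at 119 and 119.5 CPM in wild-type chow, 72.0 and 63.8 in het-labelled chow, 140.2 and 142 in wild-type HFD, and 69.9 and 61.2 in het-labelled HFD libraries. All het-labelled libraries lay below all wild-type ones, and the gene fell by 0.96 (SE 0.08, edgeR adjusted p = 0.00157). Globin genes did not show this pattern on chow: the merged Hba-a1 and Hba-a2 row was at 145 and 99.1 CPM in wild-type and 116 and 134 in het-labelled libraries; on HFD it was at 483, 359, 203 and 223 CPM in libraries 5 to 8 (-0.48 over both diets, edgeR adjusted p = 0.247). The red cell membrane gene Slc4a1 had at most 7 counts in any library. The part of red cells in the Alas2 difference was not tested further.

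Adora1, the adenosine A1 receptor gene, was at 19.1 and 22 CPM in wild-type chow, 7.51 and 6.53 in het-labelled chow, 20.9 and 19.9 in wild-type HFD, and 8.36 and 5.05 in het-labelled HFD libraries. Its levels on chow and HFD were close within each genotype, and it fell by 1.57 (SE 0.14, edgeR adjusted p = 0.00157). Aldh1b1, a mitochondrial aldehyde dehydrogenase gene, fell by 0.67 (SE 0.07, edgeR adjusted p = 0.00377), from 48.9 and 49.1 to 31.0 and 31.8 CPM on chow and from 36.7 and 34.1 to 23.2 and 20 CPM on HFD. Among all 83 called genes described here or in the lists, the calls of Mettl7a3, the Mettl7a2 row, Alas2 and Adora1 held under every alternative tried, the fit without a diet term included.

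Low-abundance genes made up most of the largest falls. Dct, an enzyme gene of melanin synthesis, was between 2.08 and 5.50 CPM in wild-type and between 0.214 and 0.992 CPM in het-labelled libraries (log2 difference -2.88, SE 0.31, edgeR adjusted p = 0.00529). Cyp26b1, whose product breaks down retinoic acid, was between 6.11 and 14.9 CPM in wild-type and between 0.853 and 2.84 CPM in het-labelled libraries (-2.83, SE 0.38, edgeR adjusted p = 0.0109). Hr, a corepressor of nuclear receptors, fell by 2.75 (SE 0.35, edgeR adjusted p = 0.0094), from 0.882 and 0.869 to 0.142 and 0.340 CPM on chow and from 4.44 and 2.90 to 0.375 and 0.426 CPM on HFD. The oxysterol-binding protein relative Osbpl3 (-2.86, edgeR adjusted p = 0.0145) and Fam83f (-2.57, edgeR adjusted p = 0.0112) belonged to the same range of size. All these calls held without any single library.

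Treh, the trehalase gene (-2.75, edgeR adjusted p = 0.0222), the plastin gene Pls1 (-2.68, edgeR adjusted p = 0.0398), Tmeff2 (-2.52, edgeR adjusted p = 0.0318) and the monocarboxylate transporter gene Slc16a5 (-2.37, edgeR adjusted p = 0.0145) also fell. Most of these calls rested on single libraries. Those of Pls1 and Tmeff2 also ended under limma-voom with every library kept. The Treh call ended without library 1, 2, 5 or 7 (adjusted p up to 0.0647), the Tmeff2 call without library 2, 3, 4, 5 or 6 (up to 0.0833), the Pls1 call without any but library 6 (up to 0.109), and the Slc16a5 call without library 2 (0.0603). Mfsd2a, a lysophospholipid transporter gene that is higher on HFD in both genotypes, and the vitamin C transporter gene Slc23a1 were added after their values were seen. Mfsd2a fell by 0.82 (SE 0.09, edgeR adjusted p = 0.00847), from 12.5 and 13.7 to 5.74 and 7.34 CPM on chow and from 130.3 and 141 to 81.2 and 85.9 on HFD, and Slc23a1 fell by 0.85 (SE 0.10, edgeR adjusted p = 0.00884). Both calls, like those of Aqp8 and Aldh1b1, held without any single library.

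**Figure D3:**
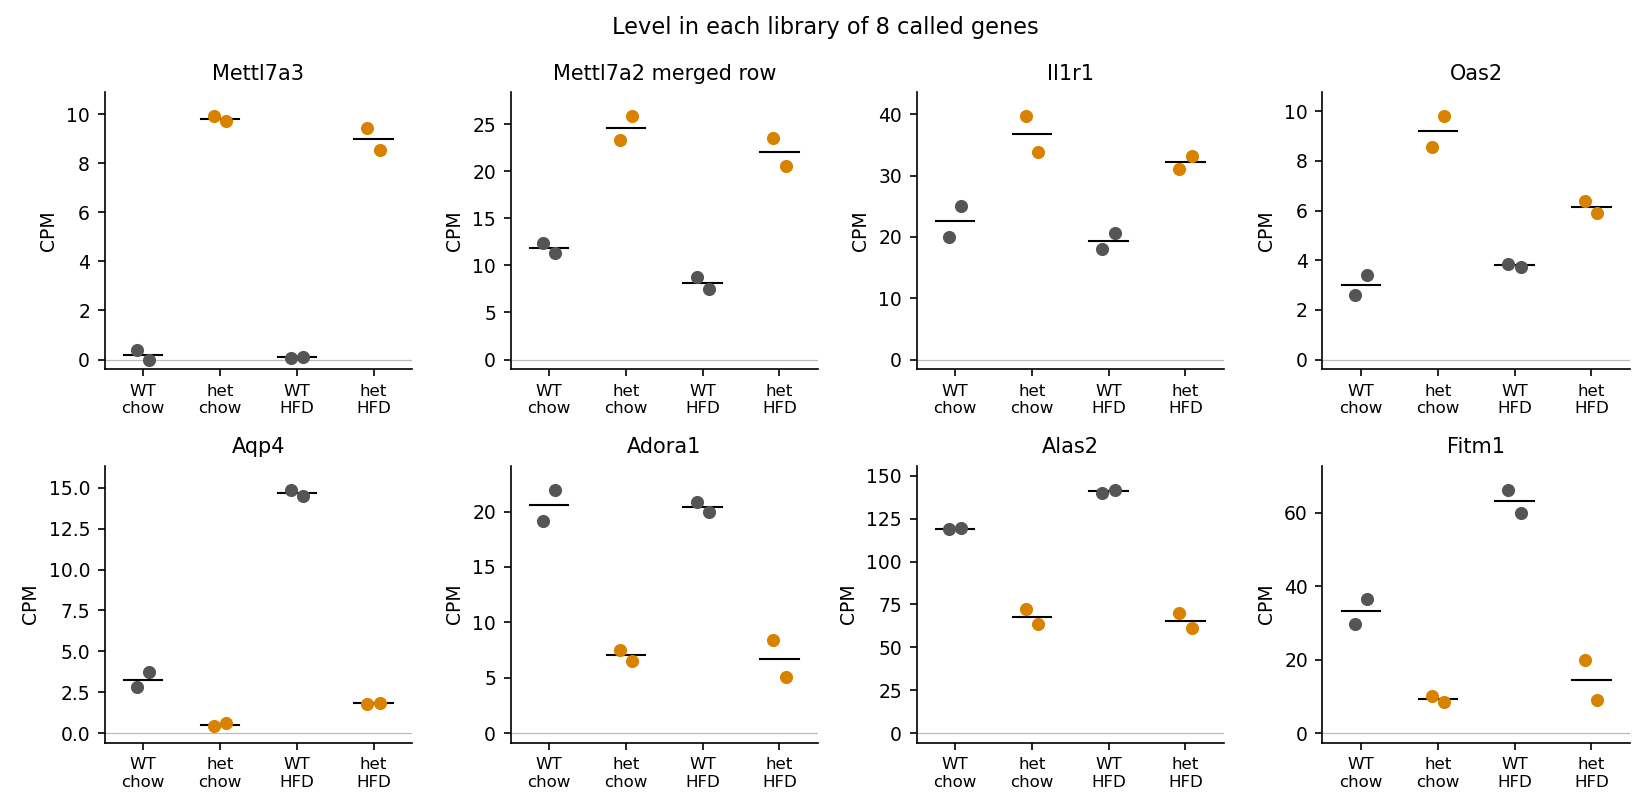
Level in CPM (y axes, starting at 0 and drawn to a separate scale for each gene) of 8 called genes in each of the 8 libraries (points), with the mean of each group of 2 as a line. In every panel the het-labelled libraries (orange) and the wild-type libraries (grey) are apart on both diets; Aqp4 reaches 14.9 CPM in wild-type HFD and at most 1.85 CPM in het-labelled libraries.

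Among 21 tested genes of lipid droplets and fatty acid uptake, many of them known PPARG targets in liver, 5 fell (Fitm1, Plin4, Mogat1, Plin2 and Cidec) and 1 rose (Lpl). This was 23.8% lower and 4.76% higher, where 1.71% and 0.778% of all tested rows were called. The median log2 difference was -0.31 (-0.18 on chow, -0.59 on HFD), and 19 members were below 0. In 8 members (38.1%) the het-labelled libraries lay below the wild-type ones on both diets, as in 9.34% of all tested rows. The numbers called lower without libraries 1 to 8 in turn were 2, 3, 4, 5, 3, 4, 3 and 3, and 2 were called without libraries 3 and 8 together. In whole liver, fewer cells of a type and less RNA per cell cannot be told apart.

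Fitm1, which encodes a membrane protein that helps partition newly made triglyceride into droplets, was at 29.6 and 36.6 CPM in wild-type chow, 10.1 and 8.36 in het-labelled chow, 66.2 and 59.9 in wild-type HFD, and 20 and 8.96 in het-labelled HFD libraries. Even on HFD, het-labelled livers stayed below the wild-type chow level. Fitm1 fell by 1.98 (SE 0.20, edgeR adjusted p = 0.00485), with -1.84 from chow and -2.10 from HFD libraries alone. Plin4, a droplet coat protein gene, was at 10.8 and 9.50 CPM in wild-type chow, 3.68 and 4.96 in het-labelled chow, 16.7 and 28.6 in wild-type HFD, and 7.51 and 7.39 in het-labelled HFD libraries. Every het-labelled library lay below every wild-type one, and Plin4 fell by 1.44 (SE 0.19, edgeR adjusted p = 0.0094). Both calls held without any single library.

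Plin2, the main droplet coat protein of hepatocytes, was at 474 and 378 CPM in wild-type chow, 315 and 335 in het-labelled chow, 762 and 675 in wild-type HFD, and 443 and 405 in het-labelled HFD libraries. The genotypes did not overlap within a diet, although the het-labelled HFD and the wild-type chow libraries did. Plin2 fell by 0.58 (SE 0.10, edgeR adjusted p = 0.0242), and the call ended without library 1, 5, 6 or 7 (adjusted p up to 0.0691). Mogat1, an acyltransferase of triglyceride synthesis, was at 0.693 and 0.464 CPM in wild-type chow, 0.283 and 0.204 in het-labelled chow, 5.31 and 2.40 in wild-type HFD, and 0.536 and 0.426 in het-labelled HFD libraries. It fell by 2.50 (SE 0.44, edgeR adjusted p = 0.0242), and the call ended without library 1, 2, 7 or 8 (up to 0.0860).

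Cidec, which enlarges lipid droplets by fusion, was at 2.52 and 3.48 CPM in wild-type chow, 1.13 and 2.31 in het-labelled chow, 28.7 and 13.7 in wild-type HFD, and 3.43 and 1.99 in het-labelled HFD libraries. Most of the distance between genotypes was on HFD, where the log2 difference was -2.92 against -0.79 on chow. Over both diets Cidec fell by 2.17 (SE 0.46, edgeR adjusted p = 0.0438), a call that ended without any library but 4 (up to 0.123). Lpl, the lipase that frees fatty acids from lipoproteins, went the other way: it was at 41.8, 36.6, 58.4, 48.4, 27.1, 28.1, 49.5 and 35.2 CPM in libraries 1 to 8. Lpl rose by 0.53 (SE 0.11, edgeR adjusted p = 0.0451), lost without library 1, 2, 3, 5, 6 or 7 (up to 0.147).

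Other members of the list did not pass. Pparg itself was at 11.1 and 11.3 CPM in wild-type chow, 9.77 and 9.32 in het-labelled chow, 16.8 and 12.6 in wild-type HFD, and 13.0 and 11 in het-labelled HFD libraries. The HFD groups overlapped, and the log2 difference was -0.26 (SE 0.11, edgeR adjusted p = 0.224). Cd36, a fatty acid uptake receptor gene, was lower in both het-labelled libraries on each diet but with a wide spread (50.1, 64.1, 43.8, 41.1, 137, 97.1, 41.7 and 14.4 CPM; -1.24, SE 0.38, edgeR adjusted p = 0.110). Cidea had no counts on chow and 8.36, 1.2, 0.214 and 0.0711 CPM in libraries 5 to 8 (edgeR adjusted p = 0.0872). Fabp4, a fatty acid carrier gene, differed by -0.20 (edgeR adjusted p = 0.504).

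The promoters of Fitm1, Plin4 and Plin2 are given as examples of droplet genes called lower over both diets. Each is the 250 bases before the annotated start in RefSeq (build GRCm38.p6, not the build of the counts), 5′ to 3′ on the strand of the gene. Capitals mark a match to AGGTCA, the core element that many nuclear receptors bind, on either strand.
Fitm1: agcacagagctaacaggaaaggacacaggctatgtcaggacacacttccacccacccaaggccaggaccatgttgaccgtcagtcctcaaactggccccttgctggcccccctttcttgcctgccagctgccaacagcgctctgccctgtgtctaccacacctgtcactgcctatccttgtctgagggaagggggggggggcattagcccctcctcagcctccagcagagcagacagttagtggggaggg
Plin4: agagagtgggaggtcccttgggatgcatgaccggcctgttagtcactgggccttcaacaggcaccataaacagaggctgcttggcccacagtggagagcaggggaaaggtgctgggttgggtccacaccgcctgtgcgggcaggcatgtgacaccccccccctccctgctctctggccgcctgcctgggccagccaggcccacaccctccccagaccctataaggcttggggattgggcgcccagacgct
Plin2: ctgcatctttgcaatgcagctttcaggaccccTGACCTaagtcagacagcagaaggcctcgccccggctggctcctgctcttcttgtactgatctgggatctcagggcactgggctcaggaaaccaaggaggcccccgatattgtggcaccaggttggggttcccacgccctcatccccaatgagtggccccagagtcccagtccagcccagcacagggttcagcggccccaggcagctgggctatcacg
The windows are chr14:55575424-55575673 on the plus strand for Fitm1, chr17:56109783-56110032 on the minus strand for Plin4 and chr4:86670060-86670309 on the minus strand for Plin2. Plin2 held 1 match, 218 bases before the start, and Fitm1 and Plin4 held none. The window of Mogat1, also examined but not printed, held none. Of 22 listed genes, 19 were in the promoter table and 6 of them (31.6%) had a match in at least 1 of their windows, as did 4260 of all 27025 genes in the table (15.8%). Counted by window, AGGTCA was present in 14% of all 32851 windows of this length. The list is small and was chosen with results known, so nothing is read from the difference. A match is a description of letters, and the counts carry no measurement of binding.

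**Figure D4:**
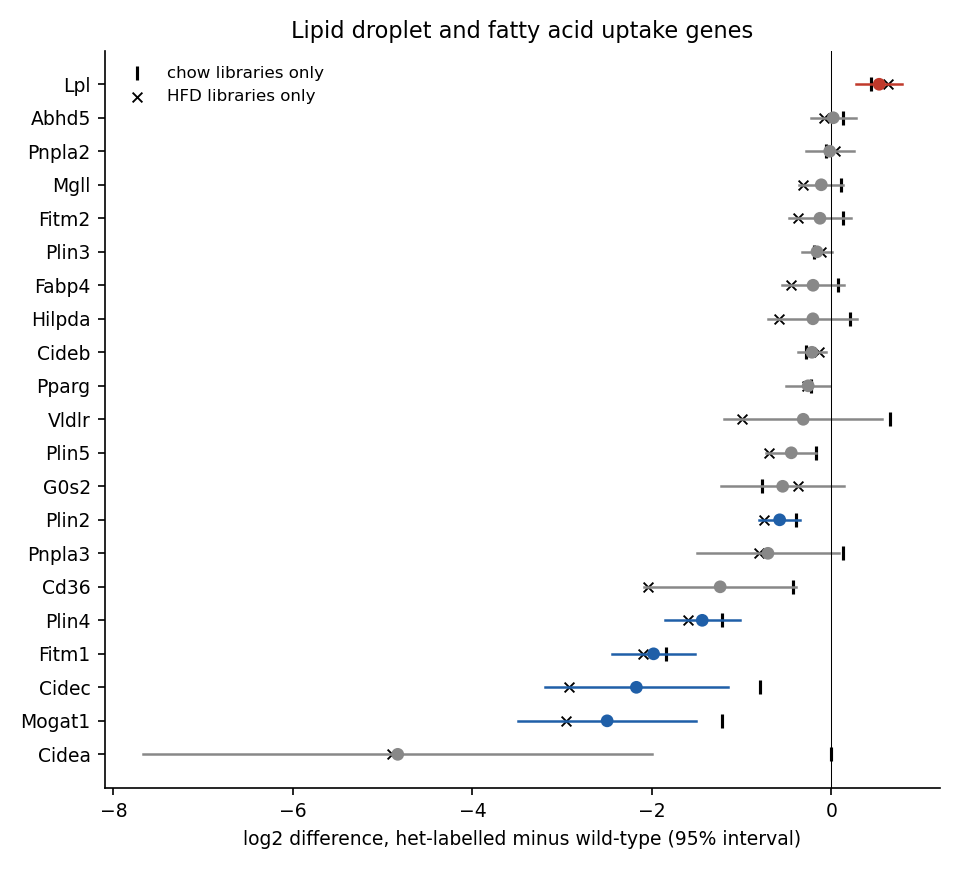
Log2 difference (x axis, het-labelled minus wild-type over both diets, with its 95% interval) of the 21 tested lipid droplet and fatty acid uptake genes (y axis). Blue was called lower, red higher and grey not called, and ticks and crosses give the chow and HFD libraries alone; Fitm1 has -1.84 on chow and -2.10 on HFD, whereas Cidec has -0.79 and -2.92.

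Fatty acid oxidation genes, many of them PPARA targets, held few calls and mostly negative values. Of 34 tested, 4 fell (11.8%, against 1.71% of tested rows), none rose and 33 were below 0, with a median of -0.29 (-0.15 on chow, -0.34 on HFD). Pdk4, the kinase that shuts pyruvate out of the mitochondrial cycle, was at 36.0 and 39.0 CPM in wild-type chow, 11 and 16.9 in het-labelled chow, 26.6 and 21.8 in wild-type HFD, and 12.7 and 5.26 in het-labelled HFD libraries. All het-labelled libraries lay below all wild-type ones, and Pdk4 fell by 1.41 (SE 0.22, edgeR adjusted p = 0.0178). Acadm, a medium-chain acyl-CoA dehydrogenase gene, was at 271 and 271 CPM in wild-type chow, 214 and 235 in het-labelled chow, 364 and 349 in wild-type HFD, and 260.2 and 262 in het-labelled HFD libraries. The genotypes were apart on each diet, and Acadm fell by 0.36 (SE 0.06, edgeR adjusted p = 0.0232). Cpt1a, the entry step of mitochondrial oxidation, added after its values were seen, did not pass (-0.20, edgeR adjusted p = 0.363). The number called was 4, 0, 3, 9, 1, 1, 1 and 4 without libraries 1 to 8 in turn and 2 without libraries 3 and 8 together, and of these fits with 1 library left out only that without library 2 ended the Pdk4 call (0.0703). The Acadm call ended without library 1, 2, 5, 6 or 7 (up to 0.0833).

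Genes that make lipid held 1 call in each of 2 lists. Of 24 fatty acid and triglyceride synthesis genes 20 were below 0 (median -0.27), and 1 fell (4.17%, against 1.71% of tested rows): Lpin2, a phosphatidate phosphatase gene, by 0.89 (SE 0.13, edgeR adjusted p = 0.0153, 0.0567 without library 2). It was at 249 and 320.3 CPM in wild-type chow, 116 and 179 in het-labelled chow, 309 and 283 in wild-type HFD, and 172 and 162 in het-labelled HFD libraries, with no overlap. Fasn, fatty acid synthase, differed by -0.44 (edgeR adjusted p = 0.271) and its regulator gene Srebf1 by 0.06 (edgeR adjusted p = 0.927). Of 26 cholesterol synthesis genes 22 were below 0 (median -0.24), and 1 (3.85%), Hmgcs1, fell by 0.76 (SE 0.14, edgeR adjusted p = 0.0266), a call lost without library 2, 3, 5 or 7 (up to 0.103). No member of either list rose. None of 27 apolipoprotein and lipoprotein genes was called by edgeR or limma-voom, and 1 was called lower by DESeq2. At an unadjusted p under 0.05 there were 5, against 2477 of all 12593 tested rows.

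Bile acid genes were not called in the comparison of both diets (0 of 25 by edgeR and by limma-voom, 2 called lower by DESeq2). At an unadjusted p under 0.05 there were 7, against 2477 of all 12593 tested rows. Cyp7a1, whose product catalyses the slowest step in making bile acids, was at 48.8 and 57.5 CPM in wild-type chow, 63.6 and 56.6 in het-labelled chow, 29.8 and 25.3 in wild-type HFD, and 112 and 71.6 in het-labelled HFD libraries. The genotypes overlapped on chow and were apart on HFD, and the common log2 difference of 0.95 (SE 0.29) had an edgeR adjusted p of 0.111. Cyp8b1, which makes cholic acid, differed by -0.60 (edgeR adjusted p = 0.137) and Akr1d1 by -0.37 (edgeR adjusted p = 0.0627).

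Drug conjugation enzymes held several small falls. Of 29 phase II genes 5 fell (17.2%, against 1.71% of tested rows), none rose, and the median was -0.26 on HFD and -0.24 on chow. Tpmt, which methylates thiopurines, was at 49.4 and 61.4 CPM in wild-type chow, 33.9 and 35.8 in het-labelled chow, 71.3 and 67.8 in wild-type HFD, and 49.2 and 44.1 in het-labelled HFD libraries. The genotypes were apart on each diet and Tpmt fell by 0.62 (SE 0.08, edgeR adjusted p = 0.0094). The glycosyltransferase gene Ugt3a1 fell by 0.53 (edgeR adjusted p = 0.0163), the sulfotransferase genes Sult1a1 and Sult1b1 by 0.82 and 0.62 (edgeR adjusted p = 0.0225 and 0.0270), and the glutathione transferase gene Gsta2 by 0.65 (edgeR adjusted p = 0.0313). Without libraries 1 to 8 in turn the list had 3, 1, 3, 4, 3, 3, 4 and 5 calls, the one without library 2 being Tpmt. The Ugt3a1 call ended without library 2 (0.0603), that of Sult1a1 without library 1, 2 or 5 (up to 0.0897), that of Sult1b1 without library 1, 2, 3, 5 or 6 (up to 0.0955) and that of Gsta2 without library 1, 2, 3, 4, 6 or 7 (up to 0.118). Among 35 cytochrome P450 and receptor genes 2 fell (5.71%), Cyp2c55 by 0.74 (edgeR adjusted p = 0.0192) and Nr1i2, the PXR gene, by 0.49 (edgeR adjusted p = 0.0449). With every library kept, the Nr1i2 call ended under upper-quartile scaling. The Cyp2c55 call ended without library 2 (0.0918) and the Nr1i2 call without library 1, 2, 3, 4, 6 or 8 (up to 0.147).

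Amino acid enzymes fell in 3 of 33 cases (9.09%, against 1.71% of tested rows), with 30 members below 0 and a median of -0.19. Oat, the ornithine aminotransferase gene, was at 1016 and 969.6 CPM in wild-type chow, 637 and 666 in het-labelled chow, 947 and 771 in wild-type HFD, and 461 and 398 in het-labelled HFD libraries. All het-labelled libraries were lower, and Oat fell by 0.80 (SE 0.10, edgeR adjusted p = 0.0094). Bhmt, which remethylates homocysteine from betaine, fell by 1.08 (SE 0.18, edgeR adjusted p = 0.0217), a call lost without library 2 or 5 (up to 0.0897). Gnmt, the glycine methyltransferase gene, fell by 0.32 (edgeR adjusted p = 0.0472). Of the fits that left out a single library, only that without library 7 kept this call. Upper-quartile scaling of all libraries also ended it.

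Oat belongs to the genes that hepatocytes around the central vein express under Wnt control. Of 20 such genes 4 fell (Oat, Lect2, Lhpp and Rhbg; 20%, against 1.71% of tested rows), while the list's median was -0.04 and 8 members were above 0. The count was 3 or 4 without any single library. Lhpp, a phosphatase gene, fell by 0.60 (SE 0.08, edgeR adjusted p = 0.0112), the hepatokine gene Lect2 by 0.45 (SE 0.06, edgeR adjusted p = 0.0094) and the ammonium transporter gene Rhbg by 0.74 (edgeR adjusted p = 0.0266, lost without library 1, 2, 3 or 5, up to 0.0979). Lect2 was at 77.3 and 79.2 CPM in wild-type chow, 56.5 and 57.8 in het-labelled chow, 106 and 99.4 in wild-type HFD, and 78.5 and 73.0 in het-labelled HFD libraries, apart on each diet. The defining members Glul, glutamine synthetase, and Cyp2e1, added after their values were seen, did not pass (-0.14 and -0.05, edgeR adjusted p = 0.397 and 0.849).

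Targets of the stress factor ATF4 gave 4 falls among 18 (22.2%, against 1.71% of tested rows) and a median of -0.09. Trib3, a pseudokinase that acts on insulin signalling, was at 6.36 and 7.13 CPM in wild-type chow, 1.27 and 2.72 in het-labelled chow, 6.06 and 4.70 in wild-type HFD, and 2.09 and 1.71 in het-labelled HFD libraries. It was lower in every het-labelled library and fell by 1.62 (SE 0.21, edgeR adjusted p = 0.0094), and the call held without any single library. Asns, asparagine synthetase, fell by 1.51 over both diets (edgeR adjusted p = 0.0480). Its log2 difference was -1.96 on chow but -0.05 on HFD, where the genotypes overlapped. With every library kept, the Asns call ended under upper-quartile scaling and in a fit of 4 group means. Gdf15 fell by 1.2 (edgeR adjusted p = 0.0491), a call that ended in the same fits, and Cth by 0.40 (edgeR adjusted p = 0.0383). Each of these last 3 calls ended in 6 or 7 of the 8 fits with 1 library left out (up to 0.182 for Asns): all but those without libraries 6 and 8 for Asns, without library 8 for Gdf15, and without library 5 for Cth. In turn the list had 1, 1, 1, 1, 2, 2, 1 and 3 calls.

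Metal handling genes moved both ways. Slc39a4, a zinc importer, was at 64.1 and 57.4 CPM in wild-type chow, 36.1 and 28.8 in het-labelled chow, 16.4 and 15.3 in wild-type HFD, and 2.52 and 1.99 in het-labelled HFD libraries. It fell by 1.57 over both diets (SE 0.30, edgeR adjusted p = 0.0326), by 0.90 on chow and by 2.79 on HFD, lost without library 1, 2, 4, 5, 6 or 7 (up to 0.0673). Hfe2, the hemojuvelin gene of the hepcidin pathway, fell by 0.49 (edgeR adjusted p = 0.0192, lost without library 2 or 5, up to 0.0833), and the metallothionein gene Mt2 fell by 1.92 (edgeR adjusted p = 0.0342), with overlap on HFD and lost without library 1, 2, 3, 4 or 5 (up to 0.105). In all, 3 of 28 members fell (10.7%) and 1 rose (3.57%), against 1.71% and 0.778% of tested rows.

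Interferon-induced genes held rises and no fall. Of 36 tested, 3 rose (8.33%, against 0.778% of tested rows), none fell and 33 were above 0, with a median of 0.35 (0.55 on chow, 0.16 on HFD). The summed level of the list overlapped between the genotypes on HFD, at 957.4 and 779.7 CPM in wild-type and 884.1 and 1057 CPM in het-labelled libraries. Oas2, an antiviral oligoadenylate synthetase gene, was at 2.58 and 3.42 CPM in wild-type chow, 8.57 and 9.79 in het-labelled chow, 3.86 and 3.72 in wild-type HFD, and 6.38 and 5.90 in het-labelled HFD libraries. The genotypes were apart on each diet, more widely on chow, and Oas2 rose by 1.15 (SE 0.19, edgeR adjusted p = 0.0212, 0.0918 without library 2). Its relative Oas1a rose by 0.98 (edgeR adjusted p = 0.0266) and Ifi44 by 1.16 (edgeR adjusted p = 0.0472). The helicase gene Ddx60, among the genes with the smallest p, rose by 0.87 (SE 0.13, edgeR adjusted p = 0.0153, 0.0618 without library 2). The Oas1a call ended without library 1, 2, 3, 4 or 6 (up to 0.0981) and the Ifi44 call without any but library 7 (up to 0.143), and the list had 1, 0, 1, 1, 3, 1, 4 and 2 calls without libraries 1 to 8 in turn and 1 without libraries 3 and 8 together.

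Markers of Kupffer cells, the resident macrophages of the liver, held 3 rises and no fall. All 12 were above 0, 3 rose (25%, against 0.778% of tested rows: Slc40a1, C1qa and C1qc), and the median was 0.89, with 1.24 on chow and 0.49 on HFD. Their summed level was 296.5 and 283.9 CPM in wild-type chow, 648.7 and 539.1 in het-labelled chow, 251.9 and 266.4 in wild-type HFD, and 398.2 and 288.5 in het-labelled HFD libraries. Library 8 was thus inside the range of the wild-type libraries. C1qa, a complement subunit gene, was at 16.9 and 18.4 CPM in wild-type chow, 39.0 and 41.0 in het-labelled chow, 15.3 and 17.4 in wild-type HFD, and 26.2 and 19.6 in het-labelled HFD libraries. It rose by 0.84 (SE 0.15, edgeR adjusted p = 0.0232), a call lost without library 1, 2, 3, 5 or 7 (up to 0.0987), and C1qc rose by 0.82 (edgeR adjusted p = 0.0318), lost without any but library 8 (up to 0.118). Clec4f, the most specific marker, added after its values were seen, was not called (0.77, edgeR adjusted p = 0.0573). Slc40a1, the iron exporter gene, rose by 0.44 (SE 0.07, edgeR adjusted p = 0.0200), lost without library 2, 5 or 6 (up to 0.0833).

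Without library 8, 8 Kupffer cell markers were called, as they were without libraries 3 and 8, and without libraries 1 to 7 in turn 1, 0, 1, 3, 0, 1 and 1 were called. Among wider macrophage and myeloid markers 1 of 15 rose (6.67%, against 0.778% of tested rows). This was Ctss, a lysosomal protease gene, by 0.83 (edgeR adjusted p = 0.0491). Of the 15 markers 14 were above 0, and the median was 0.78. Their sums were 137.5 and 115.6 CPM in wild-type chow, 277.7 and 233.3 in het-labelled chow, 119.2 and 109.1 in wild-type HFD, and 154.0 and 100.5 in het-labelled HFD libraries, so that library 8 was the lowest of all. These sums include Spp1, the tested marker below 0, which is also listed as a cholangiocyte marker, and its part in them was not tested. The Ctss call ended without any but library 5 or 8 (up to 0.166), and 8 markers were called without library 8. By the same rule 0 of 17 sinusoidal endothelial, 0 of 16 stellate, 0 of 8 cholangiocyte and 0 of 18 hepatocyte markers were called in the edgeR test. At an unadjusted p under 0.05 there were 1, 1, 3 and 3 in turn, against 2477 of all 12593 tested rows. DESeq2 called 1 hepatocyte marker lower and none of the others, and limma-voom called none of these. The part of macrophage number in the interferon or other rises was not tested.

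**Figure D5:**
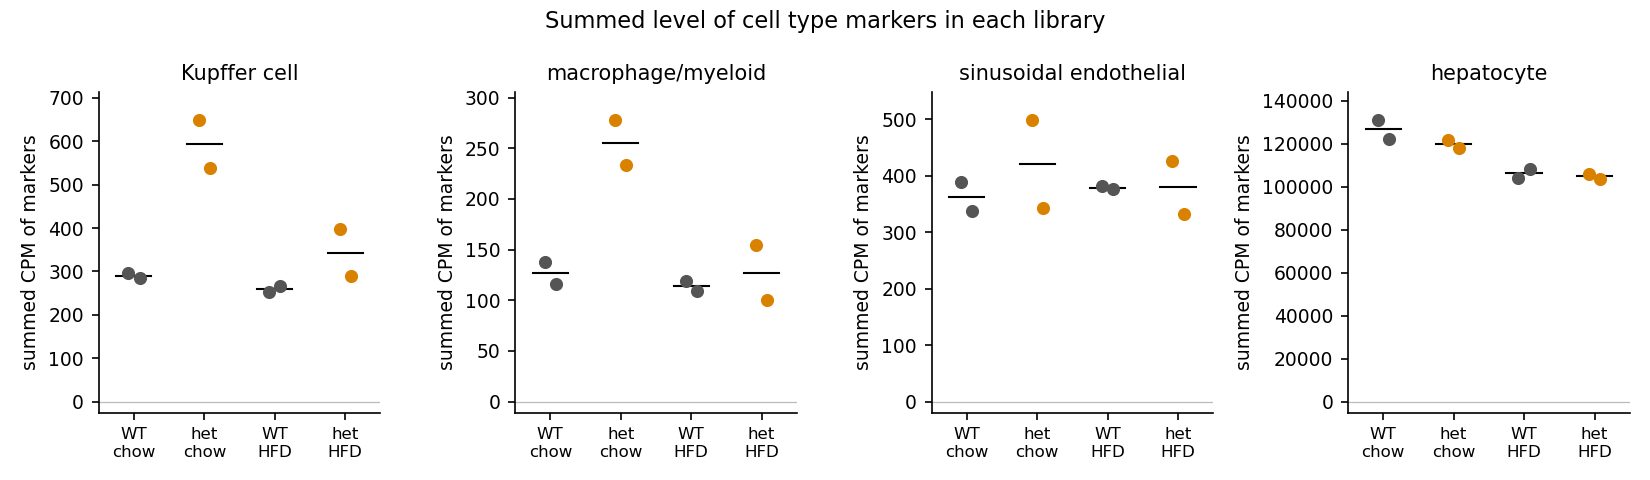
Summed level in CPM (y axes, separate scales) of the markers of 4 cell types in each of the 8 libraries (points), with group means as lines. Kupffer cell and myeloid sums are highest in the het-labelled chow libraries (648.7 and 539.1 CPM for Kupffer cells), het-labelled HFD library 8 (288.5 CPM) is inside the range of the wild-type libraries, and hepatocyte sums differ little.

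Il1r1 and Fam46a were among the rises with the smallest p. Il1r1, the interleukin 1 receptor gene, was at 20 and 25 CPM in wild-type chow, 39.7 and 33.9 in het-labelled chow, 18.0 and 20.7 in wild-type HFD, and 31.0 and 33.3 in het-labelled HFD libraries. Every het-labelled library was above every wild-type one, and Il1r1 rose by 0.72 (SE 0.09, edgeR adjusted p = 0.0094) on nearly the same scale on chow (0.70) and HFD (0.74). Fam46a rose by 0.95 (SE 0.11, edgeR adjusted p = 0.00884), from 6.49 and 6.03 to 11.4 and 10.9 CPM on chow and from 8.36 and 7.21 to 14.2 and 18.1 CPM on HFD. Both calls held without any single library. Col4a5, a basement membrane collagen gene, rose by 1.59 (SE 0.22, edgeR adjusted p = 0.0129, 0.0560 without library 2), from 1.01 and 0.927 to 3.33 and 2.72 CPM on chow and from 1.85 and 1.04 to 3.49 and 5.05 CPM on HFD.

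Signalling genes among the largest rises had low levels. Inhba, which encodes the subunit of activin A, rose by 1.5 (SE 0.29, edgeR adjusted p = 0.0318), the Wnt modulator gene Dact1 by 1.43 (SE 0.24, edgeR adjusted p = 0.0222), the phospholipase gene Plcd3 by 1.38 (SE 0.25, edgeR adjusted p = 0.0270) and the kinase gene Tnik by 1.32 (SE 0.20, edgeR adjusted p = 0.0174). Their het-labelled libraries were above the wild-type ones on each diet, which the rule that picked the largest rises required, so it is no support for them. The Inhba call held only without library 4 or 7 (otherwise up to 0.115), the Dact1 call ended without library 2, 4, 5 or 6 (up to 0.0918), the Plcd3 call without library 1, 2, 6 or 8 (up to 0.0954) and the Tnik call without library 2 or 6 (up to 0.0560). Adh6-ps1, an alcohol dehydrogenase pseudogene whose reads may come from related genes, rose by 1.2 (edgeR adjusted p = 0.0157, 0.0647 without library 2). Apbb1ip, an adaptor gene of integrin activation in blood cells, rose by 1.19 (SE 0.23, edgeR adjusted p = 0.0341), and the merged row of Evi2a and Evi2b rose by 1.14 (SE 0.21, edgeR adjusted p = 0.0299). Both stayed under 5 CPM in all libraries, and the Apbb1ip call held only without library 5 and the Evi2a+Evi2b call only without library 8 when 1 library was left out (otherwise up to 0.0954 and 0.118).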

How the data were processed

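RNA of whole liver was sequenced in 8 libraries, and the authors deposited one table of raw integer counts, not normalized, per the file headers and values. CASAVA, TopHat2, HTSeq, DESeq and build mm9 were used, per the submitters' processing notes; versions, roles, strand and the handling of reads with several matches are not given in the sources used here. The table has 22946 rows, of which 5826 were 0 throughout and 374 merge several genes. A merged row of major urinary protein genes held 7.42% to 13.6% of counts.

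The edgeR package (4.0.16, R 4.3.3) was used to filter rows (filterByExpr), to scale libraries (TMM) and to fit an additive quasi-likelihood model of diet and genotype (5 residual and 4.71 prior degrees of freedom, common biological coefficient of variation 11.6%). Tests were 2-sided, p-values were Benjamini-Hochberg adjusted over all 12593 rows, and genes were called under 0.05. SEs and 95% intervals were calculated back from the test statistic and are approximate. DESeq2 1.42.0 and limma 3.58.1 served as alternatives, and the procedure was tested on simulated counts.

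Named genes include the 12 largest rises and 12 largest falls among called genes averaging 1 CPM or more without genotype overlap on either diet. They also include the 6 smallest p in each direction among all called genes. Further named genes are up to 4 called members of each list (or 3 members as values) and a panel that includes Kmt2d and Pparg. The comparison, its members and the gene lists were chosen with earlier results of these data known. The fits without libraries 3 and 8 and some named genes were added after seeing the data. A few members of the gene lists that count among their calls are not reported here by name.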

Additional observations from a re-analysis of the deposited data

How the results depend on the processing

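Against 98 genes higher and 215 lower, DESeq2 called 208 and 460, a fit without a filter on low counts 204 and 399, limma-voom 177 higher, and a fit of 4 group means 152 higher. Without the diet term 2 and 6 were called. With 1 library left out the counts ran from 7 to 135 higher and from 37 to 189 lower, and without libraries 3 and 8, a choice made after seeing the data, 95 were lower. Of the 313 genes, 303 were also called by DESeq2. The interaction count of 0 became 29 with DESeq2, 8 without a filter and 0 to 14 with 1 library left out. For chow alone, 71 calls became 220 with DESeq2 and 8 to 1892 with 1 library left out. For HFD alone, 25 became 231 with DESeq2, 14 with limma-voom, 224 without a filter, 56 with the spread of all 8 libraries, and 0 to 682 with 1 library left out, where the lone library is assumed to vary like the rest. No named gene changed sign while called. Of their alternative values, 404 lost the call and 43 gained one. Scaling moved the median of all genes by less than 0.1 on the log2 scale. With 3 counts at 0.161 to 0.213 CPM, the levels of Mettl7a3 in wild-type livers and of Cidea on chow lie at the limit of detection. No paired analysis was made because the labels give no pairing: the library numbers run from 1 to 8 and no number is shared between groups. The labels do not say whether animals were related or handled in pairs.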

Other observations

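Of 4 tested markers of fat cells 2 fell (50%, against 1.71% of tested rows) and none rose. Adrb3, the beta 3 adrenergic receptor gene known from fat tissue, was at 12 and 12.6 CPM in wild-type chow, 2.76 and 4.42 in het-labelled chow, 3.98 and 5.85 in wild-type HFD, and 2.04 and 2.56 in het-labelled HFD libraries. It fell by 1.48 (SE 0.21, edgeR adjusted p = 0.0127, 0.0560 without library 2). Cfd, which encodes adipsin, fell by 2.68 (SE 0.59, edgeR adjusted p = 0.0482), from 20.9 and 13.0 CPM in wild-type HFD to 4.83 and 0.284 CPM in het-labelled HFD libraries, and was under 1 CPM on chow in all libraries. With every library kept, this call ended under upper-quartile scaling and in a fit of 4 group means. The Cfd call ended without library 1, 2, 3, 4, 5 or 6 (up to 0.140). The tested markers Car3 (0.11, edgeR adjusted p = 0.716), added after its values were seen, and Fabp4 (-0.20, edgeR adjusted p = 0.504) were not called. The adipocyte markers Adipoq, Plin1, Retn and Lep were too low to be tested.

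H2-Q10, which encodes a secreted class I molecule of the hepatocyte, fell by 0.46 (SE 0.07, edgeR adjusted p = 0.0191, 0.0774 without library 2). Among 19 male-biased liver genes 2 fell (10.5%, against 1.71% of tested rows), while the list's median was 0.12. These were Cyp4a12b, by 0.67 (edgeR adjusted p = 0.0270), and Mup21, by 0.48 (edgeR adjusted p = 0.0480). The cell cycle inhibitor gene Cdkn1a fell by 1.41 (edgeR adjusted p = 0.0472), and the imprinted gene Peg3 rose by 0.87 (edgeR adjusted p = 0.0498). With every library kept, the Peg3 call ended with DESeq2-type size factors and the Mup21 call with upper-quartile scaling. Both ended when only rows averaging 1 CPM or more were tested. With 1 library left out, the Cyp4a12b call ended without library 1, 2, 5 or 7 (up to 0.0918), that of Mup21 without library 1, 2, 3, 4, 6 or 8 (up to 0.153), that of Cdkn1a without any but library 3 (up to 0.117) and that of Peg3 without any but library 1 (up to 0.159).

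Some lists leaned to a side with no call in the edgeR test. Of 19 heat shock genes 18 were above 0 (median 0.24, 1 called by DESeq2 and 0 by limma-voom). At an unadjusted p under 0.05 there were 8, against 2477 of all 12593 tested rows. Their summed level overlapped on chow, at 2969 and 2680 CPM in wild-type and 3441 and 2685 in het-labelled libraries. On HFD it was 3838 and 3526 CPM in wild-type libraries, 4154 in library 7 and 5447 in library 8. Hspb1 was at 12.6, 10.7, 14.2, 17.6, 12.7, 12.5, 22 and 49.5 CPM in libraries 1 to 8. Fos, an immediate early gene, was at 80.3 CPM in library 8, 12 in library 7 and at most 3.88 in the others (edgeR adjusted p = 0.0573). Foxa1, a hepatocyte transcription factor gene, was at 45.4 and 50.3 CPM in libraries 4 and 8 and at most 24.9 in the others (edgeR adjusted p = 0.0859). Of 13 core clock genes 11 were below 0 (median -0.29), and none was called by edgeR, DESeq2 or limma-voom. At an unadjusted p under 0.05 there were 4, against the same 2477 of 12593 rows.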
